A study of Mus musculus with 2 samples.

Results

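The 10 genes of the Notch pathway described here were read out in ground-state mouse embryonic stem (ES) cells, the receptors Notch1, Notch2, Notch3 and Notch4, the ligands Dll1, Jag1 and Jag2, the DNA-binding factor Rbpj and the effectors Hes1 and Hey1. They were taken by gene symbol, and all 10 were found among the 28592 genes of the table. The cells were E14TG2a, a male mouse ES line deficient in Hprt, kept in 2i/LIF medium, which combines inhibitors of MEK and GSK3 with leukaemia inhibitory factor and holds the cells in the naive state. There was 1 group of 2 replicates, with no other genotype, treatment or time. Nothing in the labels says that these came from different cultures, and the SD between them may therefore be a technical one. Levels are FPKM, that is, fragments mapped to a gene relative to its transcript length and to all mapped fragments, so they can be compared between genes of different length.

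Notch is a receptor through which neighbouring cells signal by contact. A ligand of the Delta or Jagged type on one cell pulls on the receptor of another, an ADAM protease and then the gamma-secretase complex cut the receptor, and its intracellular part enters the nucleus. There it joins the DNA-binding protein Rbpj and Mastermind coactivators and turns on target genes such as those of the HES and HEY repressors, while Rbpj without it is bound by corepressors. In mouse ES cells the pathway is best known for its part in the choice of neural fate on differentiation, and Hes1 also responds to signals other than Notch.

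The DNA-binding factor and 1 effector were expressed well above the receptors, and 1 ligand stood out from the other ligands. Detection was set at 1 FPKM or more in each replicate, which 8 of the 10 genes reached and Dll1 and Jag2 did not. Over all genes 39.4% were detected, and over the 20331 genes that RefSeq types as protein-coding 50.6% were. The median of the 10 mean FPKM values was 2.05, against 0.233 over all genes and 1.22 over coding genes. Among the 11253 detected genes the median was 12.7, which Hes1 and Rbpj exceeded and the other detected genes of the group did not.

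**Figure D1:**
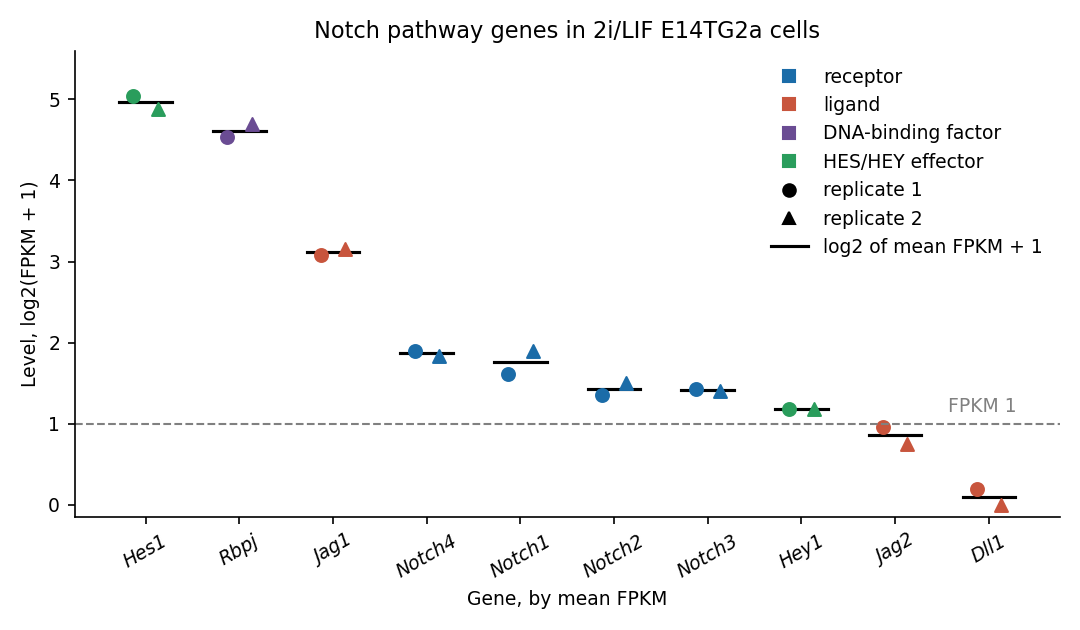
Level of each gene as log2(FPKM + 1) (vertical axis), with genes ordered along the horizontal axis by mean FPKM, a circle for replicate 1, a triangle for replicate 2 and a bar at the mean FPKM. Hes1, Rbpj and Jag1 lie apart at the top, the 4 receptors and Hey1 lie close together above the dashed line at FPKM 1, and Jag2 and Dll1 lie below it.

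From high to low, the mean levels ran Hes1, Rbpj, Jag1, Notch4, Notch1, Notch2, Notch3, Hey1, Jag2 and Dll1. Neighbours in this order were taken as separate where both replicates of the higher gene exceeded both replicates of the lower one. Of the 9 neighbouring pairs 7 were separate, and the exceptions were Notch4 with Notch1 and Notch2 with Notch3. Over all 45 pairs of the 10 genes, 43 were separate in this sense. The mean levels ranged from 0.0734 to 30.2 FPKM, and no share of separate pairs was computed for other genes. The counts of separate pairs thus describe the order and are not a trait particular to these genes. No test was run on these pairs, whose values come from the same 2 libraries. Even with the values treated as unpaired, an exact two-sided permutation test of 2 values against 2 cannot give a p below 0.333.

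The 4 receptors were all detected, at low levels that differed little from one another. Notch4 (ENSMUSG00000015468.13, chromosome 17, 34564286 to 34588543), best known from endothelium, had 2.72 FPKM in replicate 1 and 2.57 FPKM in replicate 2. Notch1 (ENSMUSG00000026923.14, chromosome 2, 26457902 to 26503822), the receptor needed for T cell fate and somite formation, had 2.06 and 2.73 FPKM. Notch4 was the higher of this pair in replicate 1 and Notch1 in replicate 2, and their ranges overlapped.

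Notch2 (ENSMUSG00000027878.11, chromosome 3, 98013538 to 98150367), a receptor of marginal zone B cells and of the developing kidney and bile ducts, had 1.56 and 1.84 FPKM. Notch3 (ENSMUSG00000038146.7, chromosome 17, 32120820 to 32166896), the receptor of vascular smooth muscle, had 1.70 and 1.64 FPKM. This pair overlapped too, and Notch4 and Notch1 each exceeded both of them in both replicates. On the log2(FPKM + 1) scale, Notch4 exceeded Notch2 by 0.44 ± 0.15 and Notch3 by 0.45 ± 0.02 (mean difference ± SD over 2 replicates). Without a pseudocount Notch4 was 1.60 and 1.57 times as high as Notch3 in replicates 1 and 2.

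Summed over the 4 receptors, the level was 8.05 FPKM in replicate 1 and 8.78 FPKM in replicate 2. Notch4 held 33.8% and 29.3% of it, Notch1 25.6% and 31.1%, Notch3 21.1% and 18.7%, and Notch2 19.4% and 20.9%. No receptor held a majority in either replicate. Values per gene do not separate full-length from truncated transcripts, so these levels are of any transcript assigned to the gene.

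The receptors lie on chromosomes 2, 3 and 17, and their promoters differ in sequence. The promoter windows are from RefSeq on GRCm38.p6, reach from 250 bases before to 50 after a transcript start, and were found for 8 of the 10 genes, not for Hes1 and Hey1. They do not cover every start of a gene, and the windows of Rbpj and Jag2 and 1 of the 2 windows of Dll1 lie inside the RefSeq spans of these genes and not at their 5′ ends. Notch4 had 5 CpG dinucleotides in its window, a count that 43.6% of all 32851 windows did not exceed, whereas Notch1 had 23, Notch3 25 and Notch2 41. The 250 bases before the start are shown for the 2 highest receptors, Notch4 (chr17:34564045-34564294, plus strand) and Notch1 (chr2:26503823-26504072, minus strand), 5′ to 3′ with CpG in capitals, because these genes had overlapping levels and unlike CpG counts.
Notch4: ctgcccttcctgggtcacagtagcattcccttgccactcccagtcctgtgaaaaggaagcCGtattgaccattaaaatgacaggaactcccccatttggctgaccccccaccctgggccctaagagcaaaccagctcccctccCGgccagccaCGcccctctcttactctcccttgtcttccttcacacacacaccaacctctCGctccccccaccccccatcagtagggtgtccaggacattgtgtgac
Notch1: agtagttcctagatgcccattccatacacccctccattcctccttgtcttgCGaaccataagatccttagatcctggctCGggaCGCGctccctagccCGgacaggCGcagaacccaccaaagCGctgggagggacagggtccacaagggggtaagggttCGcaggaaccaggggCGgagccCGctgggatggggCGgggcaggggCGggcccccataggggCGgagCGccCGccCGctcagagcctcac
In these 250 bases Notch4 has 4 CpG and Notch1 has 16.

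**Figure D2:**
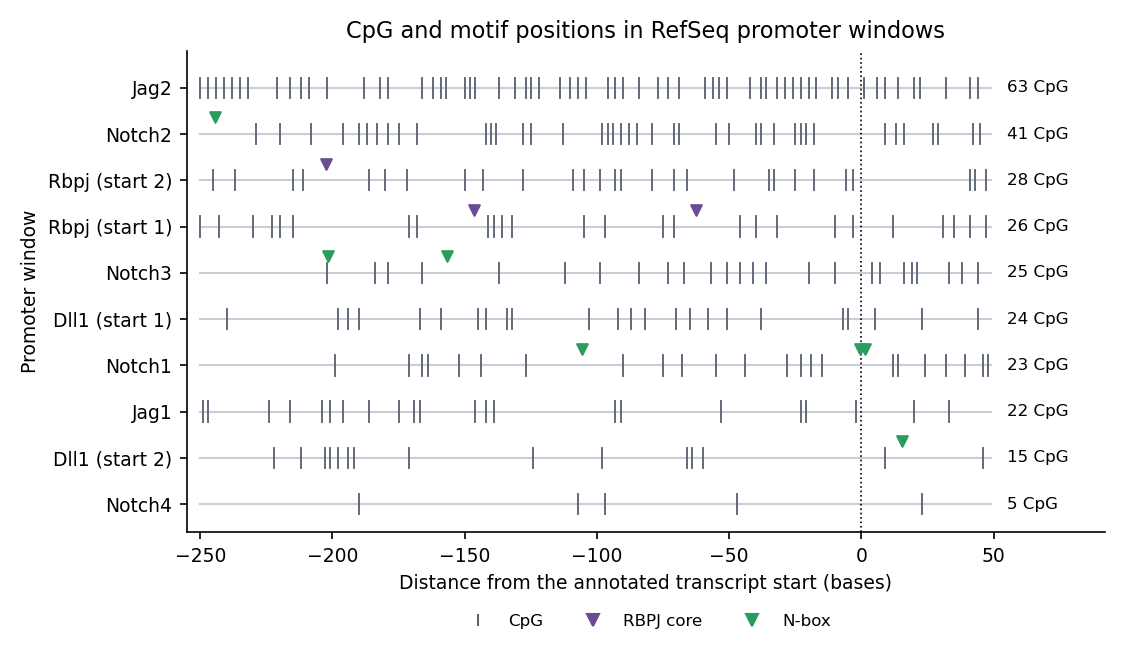
Positions of CpG (grey ticks) and of matches to the RBPJ core and the N-box (triangles) along each RefSeq promoter window, in bases from the annotated transcript start (horizontal axis), with windows ordered by their CpG count. Notch4 is the sparsest with 5 CpG and Jag2 the densest with 63, and RBPJ core matches lie in the Rbpj windows alone.

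Among the ligands, Jag1 was the main transcript. Jag1 (ENSMUSG00000027276.7, chromosome 2, 137081451 to 137116520), which is needed for blood vessel, bile duct and inner ear development, had 7.46 and 7.93 FPKM. Jag2 (ENSMUSG00000002799.5, chromosome 12, 112907803 to 112929812), a ligand of limb, palate and thymus development, had 0.951 and 0.687 FPKM and stayed under the detection limit in both replicates. Jag1 was 7.84 times as high as Jag2 in replicate 1 and 11.5 times in replicate 2.

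Dll1 (ENSMUSG00000014773.12, chromosome 17, 15367354 to 15376932), the ligand of somite and neural progenitor development, had 0.147 FPKM in replicate 1 and was listed at 0 in replicate 2. An FPKM of 0 can be a failed estimate, so no fold is given against it. The remaining ligands of the Delta type were low as well, with Dll3, which is not known to activate the receptors, at 0.602 and 0.543 FPKM and Dll4, the ligand of vessel sprouting, at 0.00733 and 0.00732 FPKM. Jag1 alone made up 81.4% and 86.5% of the summed FPKM of these 5 ligands, a sum of 9.17 and 9.16.

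Jag1 also stood above every receptor. It was 2.74 and 3.08 times as high as Notch4 in replicates 1 and 2, and stayed a little below the sum of the 4 receptors, with 7.46 against 8.05 FPKM in replicate 1 and 7.93 against 8.78 FPKM in replicate 2. Of the ligand windows, Jag2 had 63 CpG, near the top of all windows, while Jag1 had 22, and the windows at the 2 starts of Dll1 had 24 and 15. The order of these counts did not follow the order of the levels, since the ligand with the most CpG was under the detection limit. The Jag2 window and the Dll1 window with 24 CpG lie inside the gene spans, so their counts may not describe the 5′ ends of these genes.

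Of the atypical ligands, which lack the domain by which the Delta and Jagged ligands activate the receptor, 1 of 3 was detected. Dner, first known from Purkinje cells, had 2.31 and 1.84 FPKM, a level within the range of the receptors. Dlk1, an imprinted gene, had 0.00700 FPKM in replicate 1 and was listed at 0 in replicate 2, and Dlk2 had 0.0393 FPKM in replicate 1 and was listed at 0 in replicate 2.

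Rbpj (ENSMUSG00000039191.11, chromosome 5, 53555779 to 53657445), through which all 4 receptors act on DNA, had 22.1 and 24.9 FPKM. It was 8.13 and 9.68 times as high as Notch4 in replicates 1 and 2, and 65.9% of detected genes had a lower mean. Rbpj has pseudogenes, Rbpj-ps1 and Rbpj-ps3, which were not analysed here. How reads shared with them were divided is not given in the sources used here, so the level of Rbpj is uncertain to that extent.

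Promoter windows were searched on both strands for the core sequence that Rbpj binds, TGGGAA, for its longer form TGTGGGAA, for the N-box CACNAG and for the E-box CACGTG, the last pair being sites of HES and HEY proteins. The core was found in 25.6% of all windows and in both windows of Rbpj, which overlap, and in none of the other 8 windows of these genes. It lies at bases -149 to -144 on the strand of the gene and at -65 to -60 on the opposite strand, counted back from the start of the first of the 2 Rbpj windows. The 250 bases before that start (chr5:53590096-53590345, plus strand) are shown because they hold all core matches found in the 10 windows, which stand in capitals.
Rbpj: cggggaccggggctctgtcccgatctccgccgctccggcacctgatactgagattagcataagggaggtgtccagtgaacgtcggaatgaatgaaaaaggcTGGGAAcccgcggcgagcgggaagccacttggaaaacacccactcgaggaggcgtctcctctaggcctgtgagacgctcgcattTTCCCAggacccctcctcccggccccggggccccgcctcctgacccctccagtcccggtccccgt
A match of 6 letters is a description of the sequence and not a measured site. The longer form was found in 1.86% of all windows and the E-box in 7.15%, and neither in any window of these genes. The N-box was found in 42.5% of all windows and in those of Notch1, Notch2, Notch3 and the second start of Dll1, 4 of 10 windows.

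The effectors were far apart. Hes1 (ENSMUSG00000022528.7, chromosome 16, 30065357 to 30067796), a repressor that delays differentiation and represses its own promoter in cycles, had 31.9 and 28.5 FPKM. Hey1 (ENSMUSG00000040289.7, chromosome 3, 8663359 to 8667038), a repressor of heart and vessel development, had 1.27 and 1.26 FPKM. Hes1 was 25.1 and 22.6 times as high as Hey1 in replicates 1 and 2, a difference of 3.78 ± 0.11 on the log2(FPKM + 1) scale (mean ± SD over 2 replicates).

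Hes1 was the highest of the 10 genes, at 1.44 and 1.15 times the level of Rbpj in replicates 1 and 2. Of detected genes 71.6% had a lower mean than Hes1 and 2.06% had a lower mean than Hey1. Hey1 thus lay just inside the detection limit, in both replicates, while Jag2 at 0.951 FPKM in replicate 1 lay just outside it.

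Within the HES and HEY family, 3 of 9 genes were detected. Hes6, which counteracts Hes1 and favours neuronal differentiation, was the second highest with 13.3 and 11.0 FPKM, and Hes1 exceeded it by 2.39 and 2.60 times. Hes1 and Hes6 made up 68.2% and 28.5% of the summed FPKM of the family in replicate 1, and 69.4% and 26.7% in replicate 2. Hes5, the effector of neural progenitors, had 0.0731 and 0.0244 FPKM. Hes2, Hes3, Hes7, Hey2 and Heyl had mean levels between 0.00299 and 0.116 FPKM.

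Genes that HES factors are known to repress in neural progenitors were low. None of 7 proneural genes was detected, and their highest mean was 0.0823 FPKM, for the neuronal factor Neurod1, followed by Neurog2 at 0.0321 and Atoh1 at 0.0203 FPKM. Neurog1 and Neurod4 were listed at 0 in both replicates. Their low level beside a high level of Hes1 is a description of 1 cell state, in which no other state was measured.

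**Figure D3:**
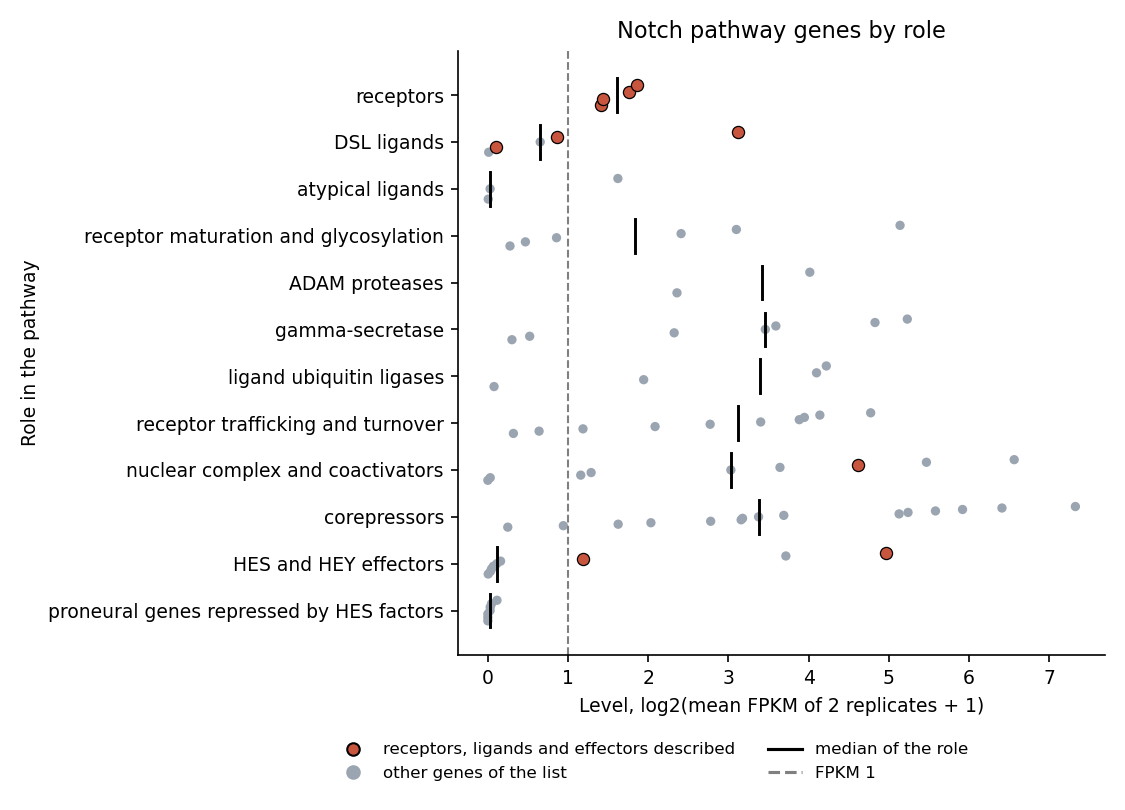
Mean level of 81 Notch pathway genes as log2(FPKM + 1) (horizontal axis) by role (rows), with the 10 genes described in red with black outline, other genes in grey, a bar at the median of each role and a dashed line at FPKM 1. Receptors lie between 1.67 and 2.65 FPKM, the roles that process them have medians of 2.56 FPKM or more, and the ligands, the HES and HEY genes and the proneural genes have medians under 1 FPKM.

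The wider pathway was described with a list of 81 genes in 12 roles, of which 50 (61.7%) were detected, at a median of 2.65 FPKM. The same call held for 39.4% of all genes and 50.6% of protein-coding genes. The counts by role, above and below, are small and stand beside these shares as description only. Without the 10 genes above, 42 of the other 71 (59.2%) were detected, at a median of 3.10 FPKM. The enzymes that act on the receptor were mostly above it. Both ADAM proteases of the outer cut were detected, Adam17 at 15.2 ± 0.266 and Adam10 at 4.13 ± 0.853 FPKM (mean ± SD, n = 2, here and in the following values of the list).

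Of the 7 gamma-secretase genes 5 were detected. The subunit gene Psenen was at 36.6 ± 3.24 and Aph1a at 27.4 ± 1.07 FPKM, while the alternative subunit gene Aph1b was at 0.232 ± 0.0151 FPKM. Psenen and Aph1a lay above each receptor in both replicates, as the highest receptor value was 2.73 FPKM.

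Receptors are sugar-modified before they reach the surface, and 3 of 6 maturation genes were detected. Poglut1 and Pofut1, which add O-glucose and O-fucose, were at 34.3 ± 0.707 and 7.57 ± 0.0651 FPKM, and Rfng, a Fringe enzyme that extends O-fucose, was at 4.32 ± 0.573 FPKM. The other Fringe genes were not detected, with Lfng, the Fringe gene of the segmentation clock, lowest at 0.211 ± 0.0709 FPKM and Mfng at 0.454 FPKM in replicate 1 and 0.313 FPKM in replicate 2. The protease gene Furin was at 0.811 ± 0.113 FPKM.

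On the ligand side, 3 of 4 ubiquitin ligase genes were detected. Mib1, the main ligase for ligand uptake in the mouse, was at 17.7 ± 1.57, Mib2 at 16.2 ± 0.932 and Neurl1a at 2.85 ± 0.154 FPKM, with Neurl1b at 0.0551 ± 0.0418 FPKM. Of the 10 genes of receptor trafficking and turnover 8 were detected, led by the ubiquitin ligase gene Itch at 26.4 ± 2.67, Dtx1 at 16.7 ± 0.302 and Dtx3 at 14.4 ± 1.74 FPKM, with Dtx4 lowest at 0.247 ± 0.0589 FPKM. Dtx1 and Nrarp are both known as Notch target genes in other tissues, and they were far apart here, with Nrarp at 0.557 ± 0.124 FPKM.

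In the nucleus 7 of 9 genes of the activating complex were detected. Snw1, a splicing factor that also binds the complex, was at 93.7 ± 1.56 and the acetyltransferase gene Kat2b at 43.4 ± 2.16 FPKM, and both stood above Rbpj. The Mastermind genes were low by comparison, Maml2 at 1.44 ± 0.0343, Maml1 at 1.23 ± 0.115 and Maml3 at 0.0209 ± 0.0114 FPKM, and Rbpjl, a relative of Rbpj known from pancreas, was listed at 0 in both replicates. Of 15 corepressor genes 13 were detected, led by Hdac2 at 159.8 ± 0.107, Ctbp2 at 84.2 ± 0.881 and Hdac1 at 59.6 ± 2.24 FPKM, all of which serve many other factors, and with Tle2 lowest at 0.188 ± 0.0172 FPKM.

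The replicates were next compared gene by gene. Over all genes above 0 in a replicate, 51.2% were higher in replicate 2, and of the 10 genes 4 were, namely Notch1, Notch2, Jag1 and Rbpj. Notch1 had the largest ratio among the detected ones, 1.32 times as high in replicate 2 as in replicate 1. Genes at a mean of 1 to 5 FPKM differed by a median factor of 1.12 in either direction, and 10% of them by more than 1.45, so Notch1 lay between these values.

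Notch2 was 1.18 times as high in replicate 2, and Notch3, Notch4 and Hey1 were at 0.964, 0.944 and 0.994 times, close to equality. Rbpj was 1.12 times as high in replicate 2 and Hes1 was 0.895 times as high. Genes at 5 to 25 FPKM, the band of Rbpj, differed by a median factor of 1.06 and 10% of them by more than 1.20. For genes at 25 to 100 FPKM, the band of Hes1, these factors were 1.05 and 1.14. Both genes thus differed by more than the median of their band and by less than its upper 10%. Jag2 was 0.722 times as high in replicate 2, beside a median factor of 1.35 for genes at 0.1 to 1 FPKM.

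**Figure D4:**
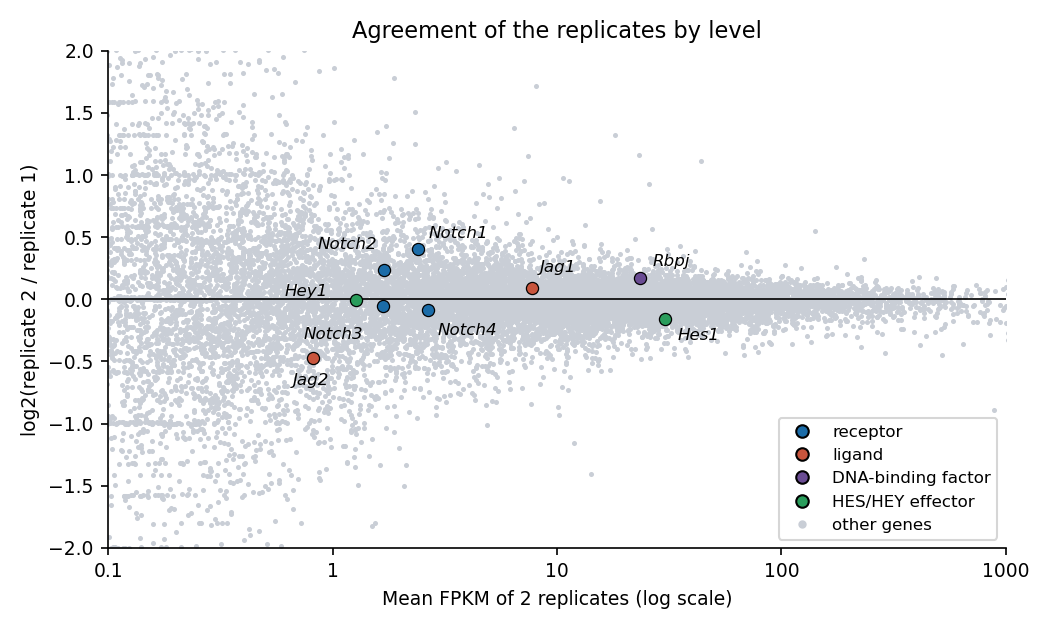
Log2 ratio of replicate 2 to replicate 1 without a pseudocount (vertical axis) against mean FPKM on a log scale (horizontal axis), for all genes above 0 in both replicates within the axes (grey) and for 9 of the 10 genes (coloured by role), Dll1 being listed at 0 in replicate 2. The spread of all genes narrows with level, and Notch1 and Jag2 lie furthest from the line of equality, at 0.41 and -0.47.

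The identity of the cells was read from marker lists. All 8 ES cell markers were detected, led by Dppa5a with 7123 and 6972 FPKM and Pou5f1 with 1005 and 947 FPKM. None of 10 feeder fibroblast markers was detected, but they summed to 0.766 FPKM in replicate 1, against 4.02 FPKM in replicate 2, with 8 of the 10 higher in replicate 2, led by the collagen genes Col1a2 with 0.0101 and 0.917 FPKM and Col3a1 with 0.0481 and 0.809 FPKM. Acta2, Dcn and Postn were listed at 0 in replicate 1. Lum went the other way, with 0.0139 FPKM in replicate 1 and a listed 0 in replicate 2, and Twist1 had 0.350 FPKM in both. Of the 10 genes, Notch1, Notch2, Jag1 and Rbpj were higher in replicate 2 and the other 6 were lower. Over all genes above 0 in a replicate, 51.2% were higher in replicate 2. Whether feeder fibroblasts were present, and whether they had a part in any of these differences, was not tested. Of 7 primitive endoderm markers none was detected, with sums of 0.654 and 0.950 FPKM. The highest were Pdgfra with 0.304 and 0.179 FPKM and Dab2 with 0.0426 and 0.406 FPKM. Sox17 had 0.153 and 0.164 FPKM and Gata4 had 0.129 and 0.119 FPKM. Gata6, the lowest of the 7 by mean, was listed at 0 in replicate 1 and at 0.0173 FPKM in replicate 2.

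Of 8 endothelial markers 2 were detected, with sums of 6.19 and 6.77 FPKM. These were Vwf with 2.86 and 3.45 FPKM and Tek with 3.06 and 2.93 FPKM, while the defining cadherin gene Cdh5 had 0.0206 FPKM in replicate 1 and was listed at 0 in replicate 2. Of 7 neural progenitor markers Nes alone was detected, with 9.40 and 9.08 FPKM of sums of 9.78 and 9.33 FPKM, and Sox1 had 0.118 and 0.174 FPKM. In bulk RNA, a few cells with much of a transcript and many cells with little of it cannot be told apart, which holds for each low level above.

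Some of the 10 genes share their place with other transcripts in RefSeq. The lncRNA gene 0610009E02Rik overlaps Notch1 by 1489 bases on the opposite strand and had 0.480 and 0.699 FPKM. The lncRNA genes Gm40103 in Notch2 and Gm38585 and Gm41568 in Notch3 lie on the opposite strand too, and LOC115489673 overlaps Hey1 by 115 bases, all of them not analysed here. The miRNA genes Mir6996 in Notch1 and Mir6941 in Jag2, of 61 and 59 bases, were not analysed here either. The libraries were strand-specific, but the strand setting of the quantification is unknown, so reads of these partners could count toward the receptors.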

How the data were processed

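Total RNA of 2 E14TG2a replicates was depleted of ribosomal RNA and made into strand-specific libraries, per the labels' protocols. The authors deposited 1 table of FPKM per gene and replicate. The submitters' processing notes name the tools CASAVA, TopHat2 and Cufflinks and the genome builds mm10 and GRCm38. Not given in the sources used here are versions, annotation release, strand setting, row filters and scaling between libraries. FPKM summed to 946498 and 928174 in replicates 1 and 2. The number of reads is unknown, so no counting interval was computed. Among 2288 genes with a mean under 0.1 FPKM, none at 0, the most common log2 ratio between replicates was 0.001, with 347 genes (15.2%) within 0.005 of it. If those genes hold equal numbers of reads in both libraries, 1 read had close to the same worth in each. That could not be checked without read counts.

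Columns were assigned by names equal to the sample descriptions, and identifiers were matched to symbols for 28256 genes. Spans, gene types and promoters came from RefSeq (GRCm38.p6). Values were computed with pandas 2.3.3. On simulated data, only the replicate ratio of genes at 5 FPKM or more and the detection call of genes well away from the limit were tested. The simulated noise was smaller than the differences between replicates of low genes here, and genes near the limit were not tested. The genes, lists and alternatives were chosen with earlier results of these data known. Named are the 10 genes, of each role at least its 3 highest and its lowest, the highest markers, and overlapping or copied genes, except 2 genes of the list that are not reported here. Other markers named, and the counts of CpG, were chosen after values were seen. With 1 condition, no gene was named for likeness of pattern. Alternatives covered the detection limit, the pseudocount, rescaling to TPM, centring, filters on genes at 0 and leaving out each replicate.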

Additional observations from a re-analysis of the deposited data

How the results depend on the processing

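No paired analysis was possible because the series has a single group. Of 183 recomputed values 155 stayed within 1.5 times of a count or within the spread between replicates, and no called order between 2 genes turned. Part of this was fixed in advance, since leaving out 1 of 2 replicates moves a mean or mean difference by less than their SD. An order called from both replicates likewise cannot turn when 1 is left out or the pseudocount is changed. Rescaling to TPM multiplies all genes of a replicate by the same factor, so it cannot turn such an order either. These parts therefore say nothing about how robust the levels are. With a detection limit of 5 FPKM, 3 of the 10 genes were detected in place of 8, namely Hes1, Rbpj and Jag1, and the counts fell to 0 for the receptors, 0 for the atypical ligands and 1 for the ADAM proteases. With limits of 0.1 and 0.5, 3 ligands of the Delta and Jagged type were detected in place of 1, and with 0.1 all 6 maturation genes were. The median of the 81 pathway genes was 2.65 FPKM, between 2.61 and 2.73 in single replicates, 3.10 over genes above 0 and 2.82 after rescaling to TPM, which multiplied the replicates by 1.06 and 1.08 and kept the order of the 10 genes. The neighbouring pairs that overlapped were Notch4 with Notch1, whose log2(FPKM + 1) difference was 0.28 in replicate 1 and -0.06 in replicate 2, and Notch2 with Notch3. A smaller pseudocount raised differences that involve low genes, for Jag1 minus Dll1 to 5.63 with 0.1 and 7.60 with 0.01, against 3.02 with 1. The rescaled order and the motif counts in the 250 bases before the start were alternatives chosen after seeing the data. Depth in reads is unknown, and values under about 1 FPKM differ most between replicates.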
